A study of Mus musculus with 38 samples.

Results

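Heat shock proteins and their partner chaperones were described across the spleens of 6 mouse strains after a low dose of X-rays. A gene was included when its probe carried a RefSeq accession that led to 1 mouse symbol beginning with Hsp and then a letter from a to h or a digit, with Dnaj, or with Cct and then a digit. This gave 46 genes, each with 1 probe, of 21618 distinct probes on the arrays, 6518 of which led to 1 symbol. By family they were 22 Hsp40 proteins, 8 Hsp70 proteins, 8 chaperonin genes, 4 small heat shock proteins, 2 Hsp90 proteins and 2 others that only the spelling brings in. These last were Hspg2, which encodes the matrix proteoglycan perlecan and is not a chaperone, and Hspbp1, a co-chaperone that helps Hsp70 release its nucleotide. RefSeq holds 84 protein-coding symbols of this spelling, and the other 38, among them the inducible Hspa1a and Hspa1b, Hspa8, Hsp90aa1 and Hspd1, were not analysed here.

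Each of the 38 two-colour arrays compared spleen RNA of 1 irradiated mouse with that of 1 sham-exposed mouse of the same strain. The irradiated mice were males that received 10 rad of X-rays in vivo and were sampled 3.5 h later, and the controls were sham-exposed males, all 10 to 14 wk old by the labels, whereas the study's methods give a younger range. No allele, transgene or other agent is named for either group. A/J, B6.C and BalbxJ had 8 arrays each, C3H had 6, and 4 were run for BI6Jx and 4 for DBA/2J. Within a strain both dye orientations were equally frequent, because each pair of mice was hybridised again with its dyes exchanged. Nothing in the labels ties an array to its repeat with the same mice, so arrays are not independent and the strain was the unit of the main test. Strain names are spelled as in the labels. The study's methods list Balb/C, C3H/HeJ and C57Bl6/J, and BI6Jx was matched to the last by elimination.

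Chaperones bind unfolded or partly folded proteins and help them reach or regain their shape. Hsp70 proteins hold short exposed stretches in a cycle driven by ATP, Hsp40 (J-domain) proteins bring them their clients and start ATP hydrolysis, and Hsp90 proteins act late on signalling proteins such as kinases and steroid receptors. The chaperonin TRiC, built of Cct subunits, folds actin and tubulin in a closed chamber, and small heat shock proteins hold unfolding proteins without using ATP. Heat and other proteotoxic stress induces many cytosolic members through Hsf1 and heat shock elements, whereas unfolded protein in the endoplasmic reticulum (ER) induces ER members through Atf6, Xbp1 and ER stress elements. Spleen is rich in B cells, and plasma cells, which secrete antibody, depend on the ER chaperones. Because spleen is a mixture, fewer cells of a type and less RNA per cell cannot be told apart in these data.

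The authors deposited 1 signed score per spot and array. None of the sources used here gives its scale, its log base or which dye stands on top, so a score carries no level and no fold change, and the labelled tissue could not be checked against marker levels. Here each array was centred on its median, which ran from -3.16 to 3.95, and arrays on which irradiated RNA had the Cy3 label were multiplied by -1. A positive value then stands for more signal in irradiated than in sham RNA if the scores are ratios of Cy5 to Cy3, and for less if they are ratios of Cy3 to Cy5. Both readings assume that the deposited scores were not already turned to the irradiated RNA, which was not tested. The SD of an array's scores ran from 0.616 on a B6.C array to 2.35 on a C3H array. Correlations below -0.3 with others of the same dye orientation were found for 15 arrays. Array 97 of BI6Jx had 8 of them and, in B6.C, array 50 had 4 and array 53 had 3, while arrays 86 and 88 of A/J and 95 of BI6Jx had 2 each (lowest r -0.658, between arrays 88 and 97) and the others 1. Such an r belongs to 2 arrays and does not show which of them runs against the rest. Array 49 of B6.C, for example, shared its lowest r, -0.449, with array 53. No direction was settled on the 15 arrays, and only arrays 50, 53 and 97, called unsettled below, were turned or left out as a setting. Some results are given with their signs turned or without them. Calls within strains, coefficients over arrays and the gene lists are given with these 3 arrays as labelled. Of the 46 genes, 39 had values on at least 19 arrays and 6 on all 38, and an array held 24 to 44 of them (median 36).

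No chaperone gene differed between irradiated and sham spleens over the 6 strains after adjustment for multiple testing. The value of a strain gave equal weight to the mean of its Cy5 arrays and that of its Cy3 arrays, named here for the label of the irradiated RNA, and 32 of the 46 genes had values in both orientations of every strain. In limma's test of the 6 strain values against 0, with Benjamini-Hochberg adjustment over 14513 probes, 0 of the 32 genes and 0% of all probes passed an adjusted p of 0.05. At an unadjusted p of 0.05 there were 5 genes of 32 (15.6%) and 8.21% of all probes. On the positive side these were Dnajc5, Cct7 and Hspa9 (3 of 32, against 4.27% of all probes), and on the negative side Hspa4l and Hsp90ab1 (2 of 32, against 3.94%). The count was 3 of 32 with arrays 50, 53 and 97 turned, against 2.92% of all probes, and 1 of 27 without them, against 3.45%. It was 1 of 32 without BalbxJ, against 3.69%, 1 of 32 without DBA/2J, against 3.48%, and 11 of 35 without C3H, against 13.8%. Array 97 held the only Cy3 value in BI6Jx for 5 genes, Dnajc5, Cct7, Hspa5, Dnajc3 and Dnaja2, so these could not be tested without it.

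The mean over strains was on the positive side in 21 of the 32 genes (65.6%), against 48.7% of all probes. This split moved with the scaling, with a few arrays and with the genes tested: 26 of 32 genes and 71.2% of all probes were positive as deposited, 23 of 32 and 55.6% with arrays 50, 53 and 97 turned, and 13 of 27 genes and 49.1% of all probes with them left out. The 27 lack Dnajc5, Cct7, Hspa5, Dnajc3 and Dnaja2, whose means with all arrays were positive, so this count is not of the same genes. The median of the 32 means was 0.0876, against -0.00675 for all probes. Without arrays 50, 53 and 97 the median of the 27 means was -0.0024, against -0.00332. As deposited, the median of all probes itself moved to 0.121 and that of the chaperone genes to 0.172. None of the 32 genes had the same sign in all 6 strains, which 4.27% of all probes had.

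**Figure D1:**
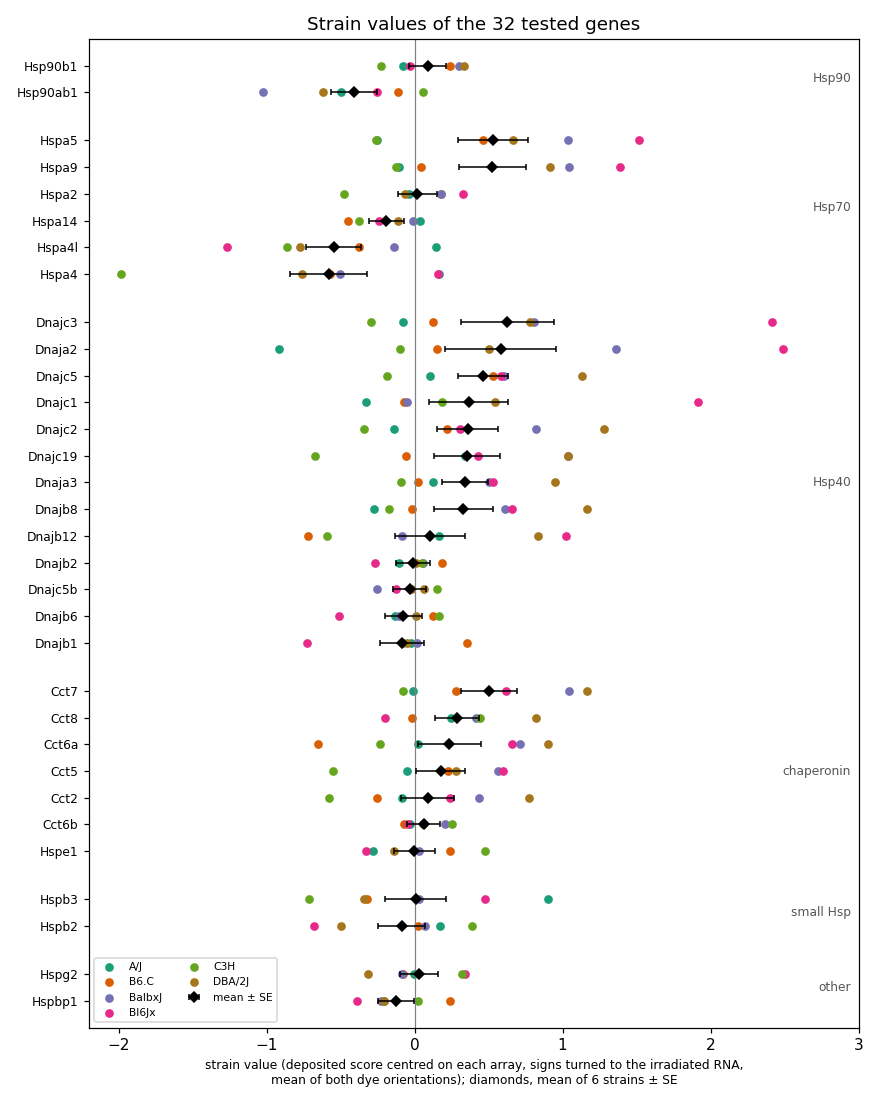
Values of the 32 tested genes in each of 6 strains (coloured points; deposited score centred on each array, turned to the irradiated RNA, both dye orientations averaged) with the mean over strains and its moderated SE (black diamonds), grouped by family. Points of one gene lie on both sides of 0 in every row, and the widest rows, Dnajc3 and Dnaja2, reach 2.41 and 2.49 in BI6Jx.

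Of the Hsp90 family, Hsp90ab1, the constitutive cytosolic Hsp90, had the lower values. Its strain values were -0.499 in A/J, -0.112 in B6.C, -1.02 in BalbxJ, -0.257 in BI6Jx, 0.0566 in C3H and -0.616 in DBA/2J, so that 5 of 6 strains were on the negative side. The mean was -0.409 ± 0.155 (SE, n = 6 strains; limma unadjusted p = 0.0270, adjusted p = 0.567), and the exact sign-flip permutation test over 6 strains gave a two-sided p of 0.0625. Single arrays spread far more widely than these means. In A/J its 8 values ran from -3.68 to 2.93 with a median of -0.422, in B6.C from -1.62 to 1.54 (median 0.236, n = 8) and in BalbxJ from -2.10 to 0.677 (median -1.19, n = 7). The 4 values of BI6Jx were -0.775, 0.479, 1.43 and -2.16, and the last is from array 97. The negative value of that strain rests on array 97, since array 95, the other Cy3 array, gave 1.43 and the Cy5 arrays averaged -0.148. C3H had the narrowest range, -0.334 to 0.815 over 6 arrays. By the strain values BalbxJ was lowest and C3H highest, by the array medians B6.C was highest, and neighbouring strains overlapped in every case. The mean stayed negative when any array or strain was left out, between -0.558 without array 95 of BI6Jx and -0.259 without array 97. It was -0.272 with the 3 unsettled arrays turned (limma unadjusted p = 0.232) and -0.295 without them (limma unadjusted p = 0.172). The sign-flip test was run with all arrays only.

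Hsp90b1 (Grp94), the Hsp90 of the ER lumen, averaged 0.0882 ± 0.123 (SE, n = 6), with strain values between -0.230 in C3H and 0.331 in DBA/2J. All 4 arrays of DBA/2J were positive, at 0.162 to 0.648, whereas A/J spanned 0 with -0.526 to 0.348. Its mean was -0.0386 with arrays 50, 53 and 97 turned and 0.0249 without them. It was -0.0365 on the Cy5 arrays and, not turned, -0.213 on the Cy3 arrays.

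In the Hsp70 family the means of the ER and mitochondrial members were positive and those of the Hsp110-type members negative, and no member passed adjustment. Hspa5 (BiP, Grp78), the Hsp70 of the ER and the chief brake on its stress sensors, averaged 0.527 ± 0.236 (SE, n = 6; limma unadjusted p = 0.0520), with strain values of -0.256 in A/J, 0.464 in B6.C, 1.04 in BalbxJ, 1.51 in BI6Jx, -0.259 in C3H and 0.662 in DBA/2J. Hspa9 (mortalin), which pulls proteins into the mitochondrial matrix, averaged 0.526 ± 0.225 (limma unadjusted p = 0.0440), with 1.04 in BalbxJ, 1.39 in BI6Jx and 0.913 in DBA/2J and values within 0.124 of 0 in the other strains. Both genes thus stood highest in the same 3 strains. Array by array, Hspa5 ran from -1.62 to 1.05 in A/J (median -0.296, n = 8), from -0.289 to 1.25 in B6.C (median 0.391, n = 8) and from -0.935 to 5.23 in BalbxJ (median 0.597, n = 8). BI6Jx gave 3.22, 1.8 and 0.516, the last from array 97, C3H 0.614, 0.610, -0.248, -0.396 and -1.29, and DBA/2J 3.10, 0.891, -0.116 and -1.23. In B6.C 7 of 8 arrays were positive, with 0.860 on array 50 and 0.495 on array 53. In DBA/2J only the Cy5 arrays were positive. Hspa9 gave 4.12, 4.26, -4.19 and 1.35 in BI6Jx and 4.06, 1.44, -0.648 and -1.20 in DBA/2J, and it ran from -3.58 to 6.43 in BalbxJ (median -1.03, n = 7), so the arrays of each of these strains lay on both sides of 0. With arrays 50, 53 and 97 turned the means were 0.384 for Hspa5 and 0.403 for Hspa9. Without these arrays Hspa9 averaged 0.290, and Hspa5 had no value in both orientations of BI6Jx and could not be tested.

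Hsp110-type proteins help cytosolic Hsp70 exchange its nucleotide. Among them Hspa4l (Apg1) had the smallest unadjusted p of the family, with a mean of -0.546 ± 0.187 (SE, n = 6; limma unadjusted p = 0.0165). It rested on 22 arrays, with 1 array per orientation in B6.C and BI6Jx. In C3H its 3 values were -6.82 on array 25, 2.31 on array 26 and 7.88 on array 28, far wider than -0.704 to 0.849 over the 6 arrays of A/J. Leaving out array 26 moved the mean to -0.314 and leaving out array 28 to -0.778. Hspa4 (Apg2), its close relative, averaged -0.582 ± 0.259 (limma unadjusted p = 0.0507), with -1.98 in C3H. The C3H arrays gave -8.20 on array 25, beside -1.20, 0.633, -0.0472 and 1.61 on the other 4, and without array 25 the mean over strains was -0.290. The remaining members were closer to 0: Hspa14, a ribosome-associated Hsp70, at -0.192, and Hspa2, a germ-cell Hsp70, at 0.0182. In C3H all 6 tested Hsp70 genes were on the negative side, between -1.98 and -0.124, where 44.1% of all probes were positive. The orientations differed: the median of the Hsp70 genes measured was -1.36, -0.218 and -0.535 on the arrays with irradiated RNA in Cy5. With it in Cy3 the median was 0.408, 0.200 and 0.134.

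Hspa5 and its partner Dnajc3 are classical targets of the ER stress response, so their promoters were read for the elements named above. RefSeq windows of 300 bases (250 before to 50 after each annotated start, assembly GRCm38.p6) were found for 38 of the 46 genes. The ER stress element was searched as CCAAT and CCACG with 9 bases of any kind between them, and the heat shock element as 3 units, GAA, TTC and GAA, with 2 bases between neighbours, both on either strand. The first was present in 3 of 38 genes (7.89%), Hspa5, Dnajc3 and Hsp90b1, against 0.137% of all genes in the table, and the second in 3 of 38 (7.89%), Dnajb6, Hspe1 and Hsph1, against 0.662%. A shorter heat shock element of 2 units, GAANNTTC, which the longer one contains, was in 8 of 38 (21.1%) against 9.04%, and the CCAAT box, contained in the ER stress element, in 50% against 41.1%. The windows below, shown because they carry these elements, are given 5′ to 3′ on the gene's strand with the matches in capitals: ER stress elements in Hspa5 (chr2:34771840-34772139, plus strand), Dnajc3 (chr14:118937682-118937981, plus strand) and Hsp90b1 (chr10:86705395-86705694, minus strand), and heat shock elements in Hspe1 (chr1:55087898-55088197, plus strand) and Dnajb6 (chr5:29735648-29735947, plus strand).
Hspa5: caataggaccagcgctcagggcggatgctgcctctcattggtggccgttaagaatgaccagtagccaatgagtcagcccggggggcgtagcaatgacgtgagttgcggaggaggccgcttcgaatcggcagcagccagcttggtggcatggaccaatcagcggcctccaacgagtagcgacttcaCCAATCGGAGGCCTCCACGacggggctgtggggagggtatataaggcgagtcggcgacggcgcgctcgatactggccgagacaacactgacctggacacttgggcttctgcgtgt
Dnajc3: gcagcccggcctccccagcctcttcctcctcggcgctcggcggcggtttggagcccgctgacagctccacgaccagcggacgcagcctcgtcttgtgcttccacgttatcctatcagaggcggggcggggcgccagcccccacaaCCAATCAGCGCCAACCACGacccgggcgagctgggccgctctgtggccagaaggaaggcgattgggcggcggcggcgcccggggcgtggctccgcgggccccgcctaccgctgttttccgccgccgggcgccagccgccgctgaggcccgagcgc
Hsp90b1: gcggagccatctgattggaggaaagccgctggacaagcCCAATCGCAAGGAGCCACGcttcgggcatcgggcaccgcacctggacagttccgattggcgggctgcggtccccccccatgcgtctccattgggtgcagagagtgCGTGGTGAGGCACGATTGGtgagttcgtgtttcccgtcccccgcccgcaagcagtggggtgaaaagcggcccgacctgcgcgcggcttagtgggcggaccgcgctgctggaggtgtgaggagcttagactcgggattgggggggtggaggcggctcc
Hspe1: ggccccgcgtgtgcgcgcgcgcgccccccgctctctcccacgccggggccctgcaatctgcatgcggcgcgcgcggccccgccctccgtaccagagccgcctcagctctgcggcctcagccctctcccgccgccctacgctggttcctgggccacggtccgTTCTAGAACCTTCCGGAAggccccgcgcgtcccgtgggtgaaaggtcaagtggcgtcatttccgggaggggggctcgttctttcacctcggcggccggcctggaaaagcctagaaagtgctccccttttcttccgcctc
Dnajb6: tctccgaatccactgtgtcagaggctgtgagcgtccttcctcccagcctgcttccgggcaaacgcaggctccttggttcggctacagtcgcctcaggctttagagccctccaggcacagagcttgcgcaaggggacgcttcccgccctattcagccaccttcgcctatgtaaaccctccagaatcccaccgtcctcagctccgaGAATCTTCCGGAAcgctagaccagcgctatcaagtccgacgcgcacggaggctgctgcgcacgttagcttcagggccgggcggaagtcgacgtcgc

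The ER stress element began 65 bases before the annotated start in Hspa5, 105 bases before it in Dnajc3, and 212 and 107 bases before it in Hsp90b1. The 3 genes that carry it had means of 0.527, 0.626 and 0.0882. The heat shock elements began 89 and 84 bases before the start in Hspe1, where the matches overlap, and 46 bases before it in Dnajb6, and these genes had means of -0.00186 and -0.0761. In Hsph1, which could not be tested over all strains, the match began 15 bases after one annotated start and 36 after another. Such a match is a run of letters and not a measured binding site.

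The Hsp40 family held the larger positive means. Dnajc3 (p58IPK), an ER co-chaperone of Hspa5 that also restrains eIF2-alpha kinases, had a mean of 0.626 ± 0.314 (SE, n = 6; limma unadjusted p = 0.0770), with strain values of -0.0759 in A/J, 0.124 in B6.C, 0.805 in BalbxJ, 2.41 in BI6Jx, -0.295 in C3H and 0.782 in DBA/2J. Without BI6Jx the mean was 0.268. Dnaja2, a cytosolic co-chaperone of Hsp70, averaged 0.581 ± 0.375 with values from -0.918 in A/J to 2.49 in BI6Jx, and it averaged 0.200 without BI6Jx and 0.261 with arrays 50, 53 and 97 turned. The mean of Dnajc3 with these arrays turned was 0.424. Dnajc5, the cysteine-string protein of secretory vesicles, was steadier, at 0.461 ± 0.171 (limma unadjusted p = 0.0243, adjusted p = 0.567). With arrays 50, 53 and 97 turned its mean was 0.414. It was positive in 5 of 6 strains, from 0.104 in A/J to 1.13 in DBA/2J, with -0.189 in C3H, and on 24 of its 31 arrays. Its 7 arrays of B6.C were all positive, at 0.111 to 1.56, while the 4 arrays of DBA/2J spread over 3.33, 1.07, 1.15 and -1.02.

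The other tested Hsp40 genes are given as an upper and a lower set by their means, a division made after seeing them and not tested. Dnajc1, an ER membrane J protein, Dnajc2 (zuotin), which binds ribosomes, Dnajc19, of the mitochondrial import motor, Dnaja3, a mitochondrial J protein, and Dnajb8, a suppressor of aggregation, had means from 0.328 to 0.365. That of Dnajc1, at 0.365, was 0.0962 with arrays 50, 53 and 97 turned and -0.0322 without them. Dnajb12, Dnajb2, Dnajc5b, Dnajb6 and Dnajb1 had means from -0.0851 to 0.104, and Dnajb1, the main heat-inducible cytosolic Hsp40, was the lowest at -0.0851 ± 0.147. In all, 9 of 13 tested Hsp40 genes were on the positive side over the strains and 12 of 13 in DBA/2J, where 55.7% of all probes were. After turning, the median of the Hsp40 genes measured in DBA/2J was 1.67 and 0.705 on the Cy5 arrays. On its Cy3 arrays the median was 0.274 and -0.352. Over the strains the positive Hsp40 genes numbered 13 of 13 as deposited, 12 of 13 with the unsettled arrays turned and 5 of 10 without them. The 10 lack Dnajc3, Dnaja2 and Dnajc5, whose means with all arrays were positive.

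Among the chaperonins, 6 of 7 tested genes had positive means, Cct7 highest and Hspe1, the lid-forming partner of the mitochondrial chaperonin, at -0.00186. Without the 3 unsettled arrays 4 of 6 were positive, and Cct7 was not among the 6. Cct7, a TRiC subunit, averaged 0.502 ± 0.189 (SE, n = 6; limma unadjusted p = 0.0259, adjusted p = 0.567), with -0.0136 in A/J, 0.279 in B6.C, 1.04 in BalbxJ, 0.619 in BI6Jx, -0.0774 in C3H and 1.16 in DBA/2J. With arrays 50, 53 and 97 turned its mean was 0.554. It had only 23 arrays, and 2 each in A/J, at 0.536 and -0.563, and in DBA/2J, at 3.04 and -0.713. The DBA/2J arrays therefore lay on both sides of 0, as did those of every other strain. The subunits Cct8, Cct6a, Cct5 and Cct2 averaged 0.283, 0.233, 0.177 and 0.087, and the testis form Cct6b 0.0608. In BalbxJ all 7 genes were positive, at 0.0285 to 1.04, as were 55.5% of all probes, and in DBA/2J 6 of 7, up to 1.16. The orientations differed: after turning, the median of the chaperonin genes measured was 0.893, 0.207, 1.05 and 3.12 on the Cy5 arrays of BalbxJ. On its Cy3 arrays the median was 0.0194, 0.196, -0.326 and -1.18. In DBA/2J it was 2.44 and 0.332 on the Cy5 arrays and -0.203 and -0.592 on the Cy3 arrays.

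Of the small heat shock proteins, Hspb2 and Hspb3, which form a complex in muscle, averaged -0.0877 ± 0.161 and 0.00614 ± 0.207, with strain values on both sides of 0. Hspbp1 averaged -0.128 and Hspg2 0.0296. None of these 4 genes passed an unadjusted p of 0.05, the smallest being 0.320 for Hspbp1.

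If the scores are dye ratios, one that followed the irradiated RNA alone would change sign with the exchange of dyes before turning. The mean did so in 5 of the 32 genes (15.6%), against 27.2% of all probes. In the other genes the part common to both orientations was the larger. Over all 32 genes the median size of the common part was 0.412, against 0.213 for the part that changed sign. Over all probes these were 0.285 and 0.155. Across 14513 probes the means over the Cy5 arrays and over the Cy3 arrays, before turning, had r = 0.681. For dye ratios the common part follows the dye, whereas scores already turned to the irradiated RNA would carry the response in it. Which of these applies was not tested. Hspa9 averaged 2.20 on the Cy5 arrays and 1.15 on the Cy3 arrays before turning, Dnajc1 2.18 and 1.45, Dnaja2 2.05 and 0.886, and Dnajc3 1.72 and 0.466. Hspa4l was negative both ways, at -1.95 and -0.859. Hsp90ab1 averaged -0.824 on the Cy5 arrays and -0.00659 on the Cy3 arrays, and after turning its Cy5 mean was negative in 5 of 6 strains and its Cy3 mean in 3 of 6. The 5 genes whose sign changed were Hspa4, Dnajc19, Dnajc5, Cct6b and Dnajc5b.

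**Figure D2:**
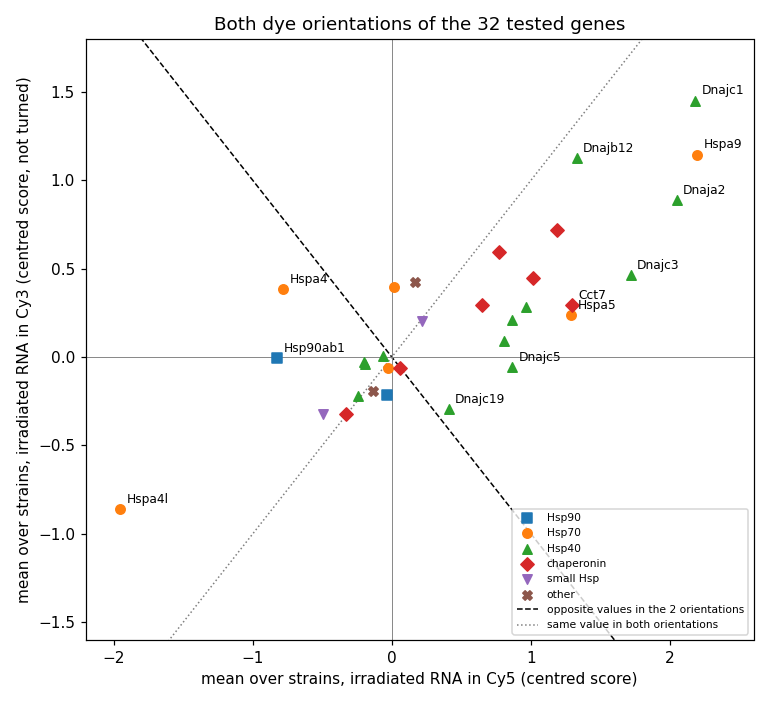
Mean over strains of each of the 32 tested genes on Cy5 arrays (x axis) against that on Cy3 arrays before turning (y axis), named for the label of the irradiated RNA, both as centred scores. Genes near the dotted line have the same value whichever RNA carried Cy5, and most of the large values, such as Hspa9 (2.20 and 1.15) and Hspa4l (-1.95 and -0.859), have the same sign both ways. The dashed line marks opposite values.

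Strains were compared on the 19 arrays with irradiated RNA in Cy5, so that a pair of mice entered once. With 1 orientation, the part common to both orientations enters this test beside the response. A strain difference in either cannot be told apart here. Complete values were at hand for 8 of the genes, and 1 of them, Dnajc3, differed between strains in limma's F test (F = 7.93, adjusted p = 0.0282), against 1.76% of 4437 probes. Its values were 3.77 and 3.56 in BI6Jx, 1.66, 2.13, 4.03 and 5.68 in BalbxJ and 3.15 and 1.52 in DBA/2J. In A/J they were 0.174, 2.10, 0.605 and 1.17, in C3H 1.42, -0.819 and -0.711, and in B6.C 0.204, -0.0493, 0.209 and -0.553. BI6Jx, BalbxJ and DBA/2J thus did not overlap with B6.C, and BI6Jx lay above every array of A/J and C3H. Cct6a followed with a limma adjusted p of 0.0740, Dnajc2 with 0.0931 and Hspa5 with 0.126, and 4 of the 8 genes had an unadjusted p under 0.05, as did 29.2% of the probes.

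Leaving out 1 array at a time kept the call for Dnajc3 in 10 of 19 fits, with a limma adjusted p between 0.0104 and 0.0765. It was lost without any one of arrays 47, 49, 51 and 53 of B6.C, 11 and 96 of BI6Jx, 27 and 29 of C3H and 35 of BalbxJ, and the adjusted p was 0.0557 without the arrays of unsettled direction. On the 19 Cy3 arrays, 0 of 11 genes with complete values passed, against 0.593% of 5063 probes, and 1 gene, Dnajb12 (limma unadjusted p = 0.0270), was under 0.05 before adjustment, against 17.8% of probes. Dnajc3 was not complete there. Before turning, its Cy3 means were 1.77 in BalbxJ, 1.16 in A/J, 0.771 in DBA/2J, 0.553 in C3H, -0.295 in B6.C and -1.16 in BI6Jx. Turned to the irradiated RNA, its Cy3 arrays ran the other way in BalbxJ, at -0.941, -1.99, -2.17 and -1.97, and in DBA/2J, at -0.773 and -0.768. In BI6Jx its only Cy3 value was 1.16, from array 97, so the strain value of 2.41 rests on an array whose direction is not settled. When genes with values on at least 15 of the 19 arrays were taken, a choice made after seeing the data, 4 of 30 passed with irradiated RNA in Cy5, against 3.72% of probes, and 12 of 30 had an unadjusted p under 0.05, against 24.4%. The limma adjusted p was 0.00256 for Dnajc1, 0.0158 for Dnajb12, 0.0286 for Dnajc3 and 0.0291 for Hspa9, all 4 lowest in B6.C and highest in BI6Jx. With irradiated RNA in Cy3, 0 of 27 passed, against 4.2% of probes, and 4 of 27 had an unadjusted p under 0.05, against 19% of probes. Over all 38 arrays with the dye as a covariate, 0 of 6 complete genes passed, against 0.0353% of probes, and 0 of 6 had an unadjusted p under 0.05, against 6.61%.

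**Figure D3:**
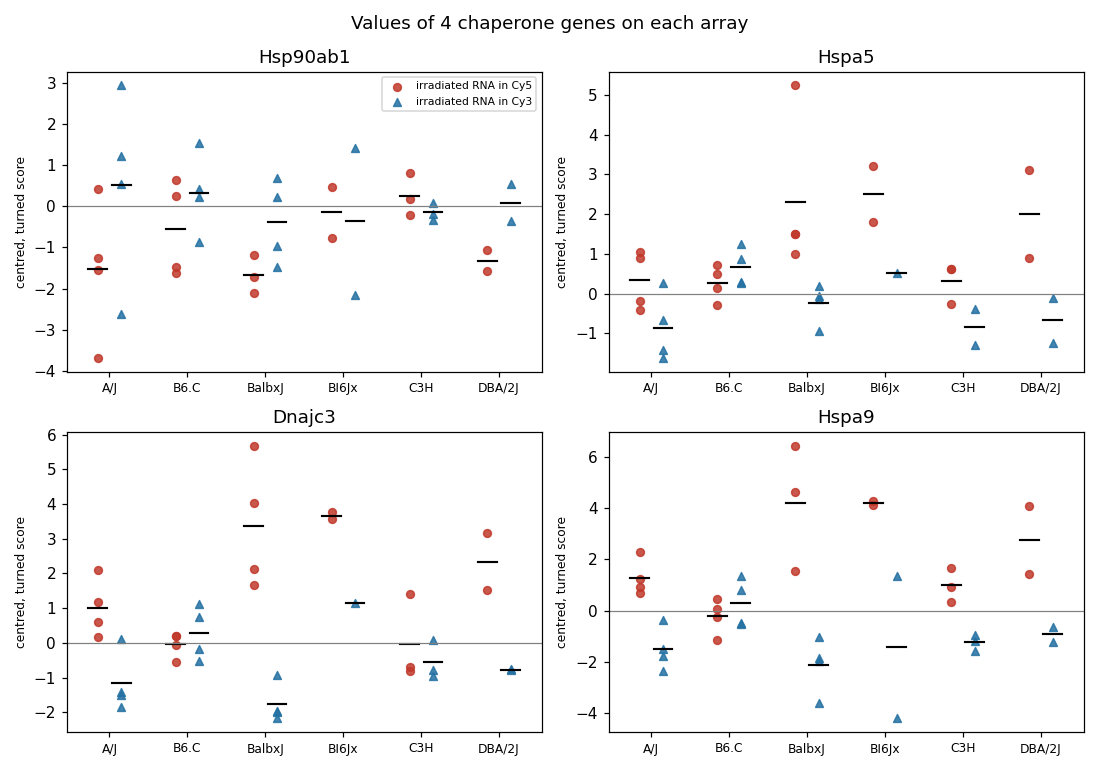
Values of Hsp90ab1, Hspa5, Dnajc3 and Hspa9 on each array by strain (centred score turned to the irradiated RNA; circles, irradiated RNA in Cy5; triangles, in Cy3; bars, means of an orientation). In BalbxJ and DBA/2J the circles of Dnajc3 and Hspa9 lie above 0 and the triangles below it, with Dnajc3 at 1.66 to 5.68 and -2.17 to -0.941 in BalbxJ.

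Within single strains, 13 of 226 tests of a gene in a strain had an unadjusted p under 0.05, against 6.33% of all probe tests, and 0 passed adjustment (lowest adjusted p 0.360). Exchanged-dye arrays of the same mice count as separate arrays in this fit, so its p-values are too small. BalbxJ had 5 of 39 genes (7.52% of all probes there, 5.34% on the positive and 2.18% on the negative side): Hspa5 (1.04 ± 0.372, SE, 8 arrays), Dnaja2 (1.90 ± 0.692), Dnajc19 (1.04 ± 0.436) and Dnajc2 (0.820 ± 0.377) on the positive side and Hsp90ab1 (-0.999 ± 0.475) on the negative. Its Hspa5 values ran from -0.935 to 5.23 with a median of 0.597, and the highest, on array 36, was far above the next at 1.51. BI6Jx had 3 of 35 (6.57%, 3.85% positive and 2.72% negative), Dnajc3, Hspa5 and Dnaja2, all positive and all with array 97 as their only value with irradiated RNA in Cy3. DBA/2J had 3 of 38 (5.76%, 5.31% positive and 0.453% negative), Dnajc2, Dnajb8 and Dnajc5, all positive. Array 34 held the highest value of each, at 4.52, 3.97 and 3.33. C3H had 1 of 36 (12.4%, 5.35% positive and 7.1% negative), Hspa4 on the negative side, with -8.20 on array 25. B6.C had 1 of 39 (5.21%, 0.538% positive and 4.67% negative), Dnaja1, the farnesylated co-chaperone of Hsp70, which was not complete over the strains. All 7 of its B6.C arrays were positive, at 0.209 to 1.81 (0.706 ± 0.263, limma unadjusted p = 0.0153), and the highest was array 53. A/J had 0 of 39 (0.586%, 0.418% positive and 0.168% negative), and its smallest p was that of Hspe1, at -0.284 ± 0.228. After adjustment 0 genes passed in any strain, whereas 0.143% of probes passed in B6.C, 0.0321% in BI6Jx and 0.509% in C3H.

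The median over the 32 genes was -0.032 in A/J, 0.0241 in B6.C, 0.191 in BalbxJ, 0.319 in BI6Jx, -0.149 in C3H and 0.305 in DBA/2J, beside all-probe medians of -0.0307, -0.0493, 0.046, -0.0486, -0.0633 and 0.0639. The positive genes numbered 22 of 32 in BalbxJ, 21 in DBA/2J, 19 in BI6Jx, 17 in B6.C and 11 each in A/J and C3H. Of all probes, 55.5% were positive in BalbxJ, 55.7% in DBA/2J, 46.4% in BI6Jx, 43.7% in B6.C, 44.4% in A/J and 44.1% in C3H. Without arrays 50, 53 and 97 the median in BI6Jx was -0.0296 and that in B6.C -0.0933 over 27 genes. The 5 genes that needed array 97 are not among these 27. Over the 27 genes the median was 0.0550 in BalbxJ and 0.0560 in DBA/2J, which lost no array.

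Pairs of chaperone genes ran from closely alike to opposite over the arrays. Among 333 pairs of the genes with at least 30 shared arrays, the median Pearson r of centred, turned values was -0.0135, against 0.0522 over pairs of all probes complete on 38 arrays. It was 0.164 in 80 pairs of one family and -0.0303 in 253 pairs of different families. Arrays share dyes, strains and mice, so these coefficients are descriptions. A set of genes did run closely together: Dnajc3 with Hspa9 (r = 0.960 over 36 arrays, and 0.956 and 0.889 within the Cy5 and Cy3 arrays), Dnajc1 with Hspa9 (r = 0.935, 34 arrays), Dnaja2 with Dnajc3 (r = 0.917, 30 arrays) and Dnajb8 with Dnajc2 (r = 0.912, 36 arrays). Hspa5 and Dnajc3, partners in the ER, had r = 0.845 over 36 arrays. Hspb2 ran opposite to some of them, with r = -0.693 against Dnajc3 and -0.694 against Cct8, and Hsp90b1 was nearest to Dnajb2 (r = 0.678, 36 arrays). The part common to both dye orientations was 1.82 in Dnajc1, 1.67 in Hspa9, 1.47 in Dnaja2, 1.09 in Dnajc3 and -0.409 in Hspb2. Turning gives this part opposite signs on Cy5 and Cy3 arrays, so it enters r over both orientations. Its share in these coefficients was not tested.

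The probes whose pattern was most like that of Hsp90ab1, among 3703 probes with 1 symbol and at least 30 shared arrays, were those for Tnfrsf25 (r = 0.920, 35 arrays), Sesn3 (0.918, 32), Zbtb18 (0.888, 34), Tas1r2 (0.887, 36) and Mlst8 (0.884, 33). The median r over these probes was -0.0293. No other chaperone gene was among the 5.

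Pancreas genes moved with Hsp90ab1. A list of 22 exocrine pancreas genes had 11 tested members, and all 11 had negative means, with a median of -0.462, where 48.7% of all probes had positive means. Of the 11, 5 had an unadjusted p under 0.05, against 3.94% of all probes on the negative side, and none passed adjustment. Defining members were Prss2 at -0.732, Ctrb1 at -0.628, Pnlip at -0.541 and Clps at -0.485. The median of the list on an array ran from -4.29 to 2.09, the lowest in A/J, where Hsp90ab1 was also lowest, at -3.68. Over 37 arrays Hsp90ab1 and this median had r = 0.757 (Spearman's rho 0.679; 0.655 without the 2 arrays farthest from the median; 0.769 and 0.920 within the Cy5 and Cy3 arrays). By strain the list's medians were -0.312 in A/J, -0.716 in B6.C, -0.890 in BalbxJ, -0.112 in BI6Jx, 0.0189 in C3H and -0.306 in DBA/2J. By these values BalbxJ was lowest and C3H highest for both, but B6.C was next to lowest for the list and next to highest for Hsp90ab1. By the median over a strain's arrays the list stood higher in BI6Jx (0.675) and A/J (0.163) than in C3H (-0.0235). The part of pancreas RNA in the Hsp90ab1 result was not tested. For Hspa5 and Dnajc3 the same coefficient was 0.0646 and 0.133, for Cct7 0.338 (23 arrays), and for Hspa4l, Dnajc5 and Hspa9 -0.145, 0.0975 and 0.0511. Lists of B cell, T cell, macrophage, erythroid, neutrophil and muscle genes were read in the same way, with medians from -0.169 (erythroid) to 0.116 (neutrophil). None of their genes passed adjustment, and these lists were not set against Hsp90ab1.

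**Figure D4:**
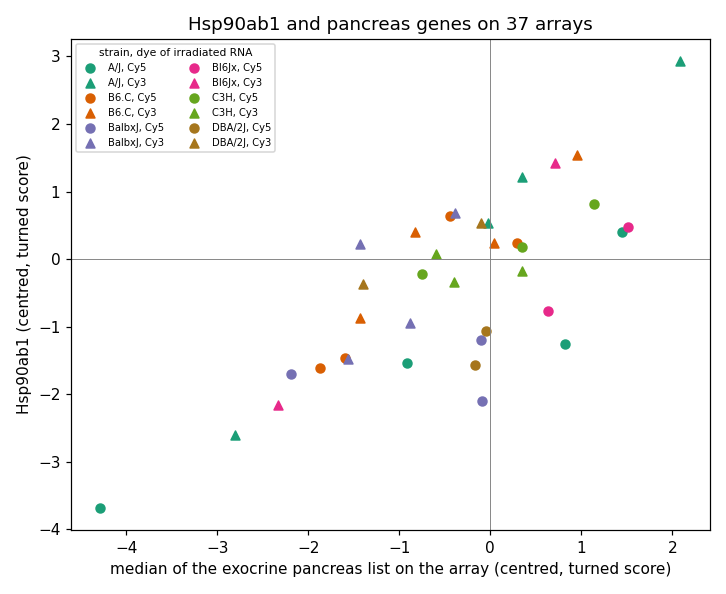
Hsp90ab1 (y axis) against the median of the exocrine pancreas list (x axis) on the 37 arrays with a value, both as centred scores turned to the irradiated RNA, coloured by strain with circles for irradiated RNA in Cy5 and triangles for Cy3. The points run from lower left (-4.29 and -3.68, A/J) to upper right (2.09 and 2.93, A/J).

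Of 64 listed co-chaperones, prefoldins, folding enzymes and stress regulators, 36 had a probe and 25 were tested, with 14 positive and 11 negative means and a median of 0.0117. None passed adjustment. At an unadjusted p of 0.05 there were 2 of 25 on the negative side, against 3.94% of all probes, and 0 on the positive, against 4.27%. These were Vbp1, a prefoldin subunit, at -0.510 ± 0.153 (SE, n = 6; limma unadjusted p = 0.00860) and Cdc37l1, a relative of the kinase co-chaperone Cdc37, at -0.499 ± 0.180 (limma unadjusted p = 0.0212). Next came the small heat shock protein Cryab at -0.326 and the ER stress factor Xbp1 at -0.429.

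The remaining 14 genes could not be tested over all strains. Dnaja1, Dnajb3, Dnajc30, Dnajc7, Hspa1l, Cct4 and Hspb1 lacked an orientation in at least 1 strain, and Dnaja4, Dnajb11, Dnajc15, Hsph1, Dnajb7, Dnajc4 and Hspb7 had values on fewer than 19 arrays. Hspb1 (Hsp25), the best-known small heat shock protein of mouse cells, had 24 arrays with a median of 0.257 and a range of -1.91 to 3.25. Hsph1 (Hsp110) had 17 arrays with a median of -0.309, and Dnajb11, a co-chaperone of Hspa5, 18 with a median of -0.086. Hspb7 gave a value on 3 arrays alone, all with irradiated RNA in Cy5, at 0.418, 5.52 and 7.51, and Dnajb7 on 4 such arrays, at -0.258 to 3.93. Dnajc4 was measured on 3 arrays with irradiated RNA in Cy3, at -0.779 to 0.516. Dnajc15, a mitochondrial J protein, spread most: its 5 arrays of C3H had -11.5, -1.38, 4.20, 2.14 and 3.41.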

How the data were processed

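The authors deposited 1 signed score per spot of their two-colour Compugen oligonucleotide arrays. For their own analysis the study's methods describe removal of poor and dim spots, subtraction of local background and Lowess normalization, but do not say that the deposited scores were made in this way, and array medians were far from 0. The plan had assumed log ratios, but the scale is not known and the values were kept as scores. Spots of one probe were averaged, arrays centred on their medians (10941 to 19860 probes per array) and signs turned where irradiated RNA carried Cy3. The number of arrays limits the precision.

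A probe was tested if it had 19 or more arrays and each strain supplied both dye orientations, with limma 3.58.1 in R 4.3.3 (lmFit, eBayes) on 6 strain values, with an exact sign-flip test for Hsp90ab1. Strains were compared by limma's F test, and single strains in a fit with dye as a covariate. Benjamini-Hochberg adjustment ran over all probes tested, and the scripts were tested on simulated data. Members and lists were chosen with earlier results of these data known. Named with values were Hsp90ab1, the gene with the smallest p of each family, the 3 with the smallest p between strains and the 2 with the smallest p in each strain. Other genes are given by their means or counted, and values for some of these, among them Hspa9, Hsp90b1 and Dnajc15, were chosen after they were seen. Symbols came from RefSeq accessions, and genes with near-identical copies may share a probe's signal. Alternatives were other centring and scaling, arrays 50, 53 and 97 turned or left out, arrays as units, other filters, a robust spread, weighted strains, and each strain or array left out.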

Additional observations from a re-analysis of the deposited data

Results flagged for a closer look

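Of 74 sets of 4 to 10 arrays of a strain, over 15 named genes, 3 held an array far from the others by Dixon's criterion, which chance gives in about 1 set in 20. Hspa5, the ER Hsp70, was 5.23 on array 36 of BalbxJ, while the nearest of the other arrays was at 1.51 and the median of all 8 was 0.597. Hspa4 was -8.20 on array 25 of C3H, with -1.20 the nearest of the other 4. Hspa2 was 1.76 on array 53 of B6.C, with 0.356 the nearest, and the direction of that array is not settled. Dnajc3 differed between strains on the arrays with irradiated RNA in Cy5 (limma F test, adjusted p = 0.0282).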

How the results depend on the processing

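No chaperone gene passed adjustment over all strains under any alternative run. At an unadjusted p the count of 5 became 3 with arrays 50, 53 and 97 turned and 1 with them left out, and ranged from 1 to 11 when a strain or array was left out, with 2 without array 97 of BI6Jx. The median gene, 0.0876, was -0.0024 with the 3 arrays left out, and over single leave-outs it ranged from 0.0296 without array 97 to 0.282 without array 95 of BI6Jx. These medians are of fewer genes: 27 without the 3 arrays, 27 without array 97 and 25 without array 95. The 1 gene that differed between strains of 8 tested (78 probes passed) became 8 of 8 as deposited (4369 probes), 4 of 8 when arrays were centred and scaled (606 probes), 0 of 9 with the 3 arrays left out (121 probes), 0 of 11 on the Cy3 arrays (30 probes), 0 of 6 over all 38 arrays (1 probe), and, in the tests added after seeing the data, 4 of 30 on Cy5 arrays (496 probes) and 0 of 27 on Cy3 arrays (537 probes) for genes with at least 15 of 19 values. It ranged from 0 to 4 when an array was left out, with 4 of 10 without array 5 of BalbxJ (561 probes) and 0 of 8, with 0 probes, without array 47 of B6.C. The 13 calls within strains became 4 as deposited (1.19% of probe tests, against 6.33%) and ranged from 9 to 18 when an array was left out. Means changed sign in 5 of 32 genes as deposited, 4 of 32 scaled, 6 of 32 with the 3 arrays turned and 5 of 27 without them. Among these, Dnajc1, at 0.365, was -0.0322 without the 3 arrays and Hsp90b1, at 0.0882, was -0.0386 with them turned. Hspe1 was 0.109 as deposited, 0.0108 scaled and 0.0217 with weighted strains, ranging from -0.0968 to 0.0630 over leave-outs. Hspb2 was 0.0446 with the 3 arrays turned and ranged from -0.211 to 0.0353. Hspa2 was -0.130 with them turned, -0.0388 without them and -0.00118 with arrays as units, and ranged from -0.0439 to 0.117. The causes were not tested. No paired analysis was possible because nothing in the labels ties an array to its dye swap with the same mice.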
